A study of Mus musculus with 8 samples.

Results

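The genes of molecular chaperones were examined for binding of ASH2L, which belongs to the core that KMT2 methyltransferases need to modify lysine 4 of histone H3. Members were the protein-coding genes whose symbols name an HSP70 or HSP110 (Hspa, Hsph1), an HSP90 (Hsp90), a small heat shock protein (Hspb), the mitochondrial chaperonin pair (Hspd1, Hspe1), a J-protein (Dnaja, Dnajb, Dnajc) or a subunit of the cytosolic chaperonin TRiC (Tcp1, Cct). This gave 79 of the 21938 protein-coding genes on the assembled chromosomes. A gene was counted as bound at its promoter when an ASH2L site was centred within 1 kb of any of its annotated transcription start sites (TSSs). Of the 79 genes, 20 had such a site, a share of 25.3% (Wilson 95% confidence interval 17.0 to 35.9%), beside 14.0% of all protein-coding genes.

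Chromatin was precipitated from iMEF cells, immortalised mouse embryo fibroblasts. All groups carried a lentiviral FKBP-tagged human ASH2L in place of the endogenous protein, whose floxed alleles had been deleted by the CAGG-Cre-ER transgene, a broadly expressed Cre activated by hydroxytamoxifen. Lines were grown from single clones, the study worked mostly with the clone NG3, and the labels do not name the clone of these libraries. The 8 libraries formed 4 groups of 2 replicates, namely ASH2L precipitates and inputs without dTAG and with dTAG for 1 h, an agent that directs the tagged protein to degradation. The labels name an Ash2l antibody for the precipitates, whereas the study's text names antibodies to the HA tag of the fusion protein, and which of them gave the sites was not settled here. The file analysed here was 1 list of 6444 site positions for all samples combined, of which 6428 lay on the assembled chromosomes. It has neither reads nor signal per sample. The methods give a minimum of raw reads planned for each library, but the depth reached cannot be read from the list, no value has a replicate error, and the effect of dTAG was not analysed here. Positions also cannot show whether the cells express fibroblast markers. Genes are not replicates and no test was made. The intervals cover counting error only.

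Chaperones bind unfolded proteins. HSP70, HSP90 and the chaperonins use cycles of ATP binding and hydrolysis to let them fold, J-proteins deliver clients to HSP70 and stimulate its ATPase, and the small heat shock proteins hold clients without ATP. Many are needed in every cell and are expressed at all times. Others are induced by heat through the heat shock factors, which bind repeats of the unit GAA or its complement, or by unfolded proteins in the endoplasmic reticulum (ER) through the ER stress element. A further group is made in male germ cells.

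Genes expressed at all times and some stress-inducible genes carried sites, and none was listed at testis-restricted genes. Of 31 constitutive genes 13 had a promoter site (41.9%, Wilson interval 26.4 to 59.2%). Of 6 heat-inducible genes 1 had one (16.7%, 3.01 to 56.4%), which fell to 0 of 6 with only the 5′ end of each gene. Of 5 ER stress-inducible genes 3 had one (60.0%, 23.1 to 88.2%), which fell to 1 of 5 with TSSs of protein-coding transcripts only. None of the 9 testis-restricted genes had a site, which allows a share of up to 33.3% by the limit of 3 counts (the Wilson interval ends at 29.9%), and none of the 6 genes restricted to muscle, endothelium or neurons, which allows up to 50.0%. Of the 22 genes left without a class 3 had a site (13.6%). The intervals of the constitutive, heat-inducible, ER stress-inducible and testis-restricted genes overlap one another, so the order of these shares is not settled by so few genes. The interval of the testis-restricted genes includes the 14.0% of all genes, and that of the constitutive genes lies above it. Some constitutive genes also rise with heat. With these counted as stress-inducible, 6 of 18 constitutive genes (33.3%) and 11 of 24 stress-inducible genes (45.8%) had a site, beside 14.0% of all genes and 19.0% of those with a CpG island. No interval was computed for these regrouped shares. Whether the share of the 18 constitutive genes stands apart from that of all genes is therefore not settled.

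**Figure D1:**
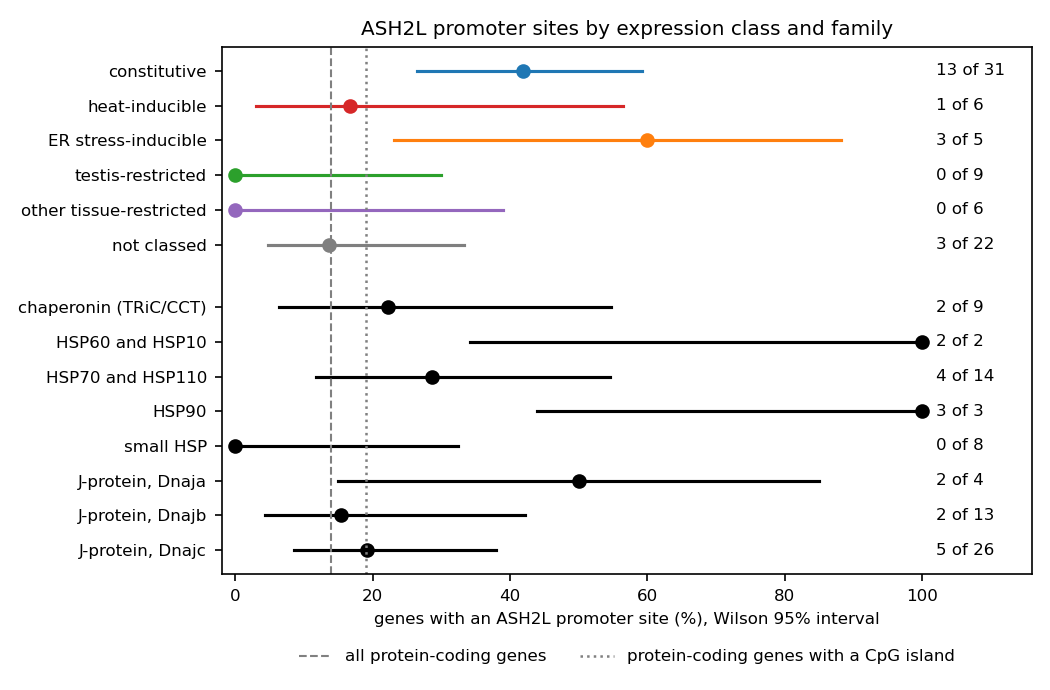
Share of genes with an ASH2L promoter site (horizontal axis, percent) by expression class (coloured) and by family (black). Points are shares, lines are Wilson 95% intervals, and vertical lines mark all protein-coding genes (14.0%) and those with a CpG island (19.0%). Constitutive genes stand at 41.9%, and both testis-restricted genes and genes with an Hspb symbol (small HSP) at 0.

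The members were not an average sample of genes, because 77 of the 79 (97.5%) had a CpG island near a TSS (up to 1 kb away), against 73.4% of all protein-coding genes. Of all genes with an island 19.0% had a site, and of the members with an island 26.0%, while without an island the share of all genes was 0.325%. Genes with more annotated TSSs are also searched over more sequence. Of genes with 1 TSS 4.85% had a site, beside 1 of 10 members. With 2 to 4 TSSs it was 11.3% beside 6 of 31 members, with 5 to 9 TSSs 21.5% beside 11 of 29, and with 10 or more 27.5% beside 2 of 9. When the share of all genes was weighted to the members' number of TSSs and island status, it was 19.0% for the members, 22.6% for the constitutive genes and, below the unweighted share, 10.6% for the testis-restricted genes. The island itself did not separate the bound members. It was present at all 20 genes with a site and at 57 of the 59 without, the exceptions being Cct8l1 and Dnajb13, which are both testis-restricted. A stricter island of at least 500 bp, with GC over 55% and a CpG ratio over 0.65, was found at 20 of 20 and at 49 of 59 genes. Over all protein-coding genes it was found at 96.8% of those with a site and 53.9% of those without.

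The 20 genes carried 24 pairings of a gene with a site over 23 sites, since Hspd1 and Hspe1 share one. The sites had a median width of 302 bp (201 to 806 bp), close to the 305 bp of all promoter sites of protein-coding genes. Of the 24 pairings 17 (70.8%) were centred downstream of the nearest TSS, beside 61.4% over all protein-coding genes, with a median offset of 38 bp downstream and quartiles of -45.8 and 170 bp. Of the 24, 20 were within 500 bp of the TSS, beside 3060 of 3640 pairings over all protein-coding genes. The member closest to the 1 kb limit from inside was Hspa5, at 819 bp, and from outside Dnajb8, a testis-restricted J-protein, at 5201 bp. No member had its nearest site between 1 and 5 kb from a TSS, where 525 of all protein-coding genes (2.39%) had theirs.

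**Figure D2:**
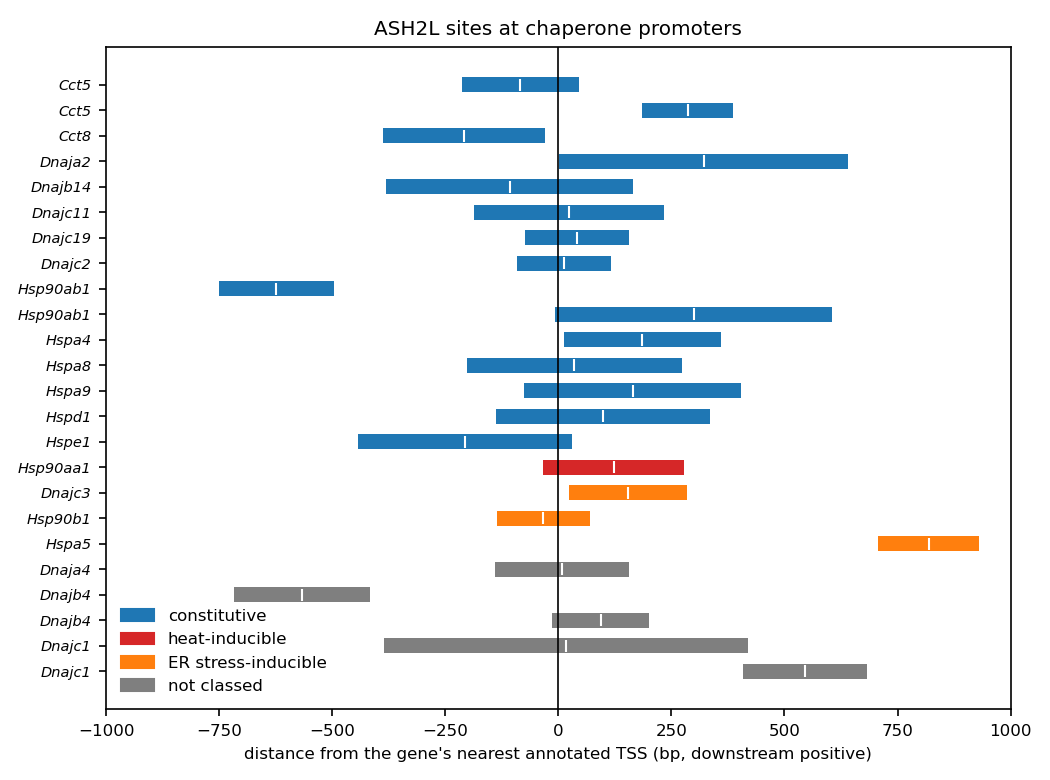
Position of each ASH2L site at a chaperone promoter relative to the nearest annotated TSS of its gene (horizontal axis, bp, downstream positive). Bars span the site, white ticks mark its centre and colours give the expression class. Most bars touch or lie just downstream of the TSS, while the site of Hspa5 is centred 819 bp downstream.

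Among the families, all 3 HSP90 genes had a promoter site (Wilson interval 43.9 to 100%), beside 14.0% of all protein-coding genes, or 23.0% weighted to the TSSs and islands of these 3. With TSSs of protein-coding transcripts only, 2 of the 3 had one. HSP90 proteins are ATP-driven chaperones that mature kinases and nuclear receptors. The constitutive cytosolic form Hsp90ab1 (ENSMUSG00000023944.14) had 2 sites on chromosome 17. The wider, of 611 bp (chr17:45572649-45573259), was centred in an intron 299 bp downstream of the TSS and the other, of 254 bp (chr17:45573769-45574022), lay 624 bp upstream. The heat-inducible form Hsp90aa1 (ENSMUSG00000021270.13) had a site of 312 bp (chr12:110695981-110696292) in an intron, 122 bp downstream of an internal TSS of a protein-coding transcript. That site was 6.59 kb from the annotated 5′ end of the gene. With only the 5′ end of each gene, 1 of the 3 HSP90 genes, Hsp90ab1, had a site. The ER form Hsp90b1 (ENSMUSG00000020048.13), known as GRP94, had a site of 205 bp (chr10:86701899-86702103) whose centre fell in a coding exon.

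In Hsp90b1 and Hspa5 the promoter call rested on a TSS inside the gene. Hspa5 (ENSMUSG00000026864.13) encodes BiP, the HSP70 of the ER, and its site of 223 bp (chr2:34775555-34775777) was also centred in a coding exon. In both genes the TSS that brought the site within 1 kb belonged to a transcript with a retained intron. Measured from the nearest TSS of a protein-coding transcript, the Hspa5 site lay 3571 bp downstream and the Hsp90b1 site 3508 bp. Such a call, resting only on a transcript not annotated as protein-coding, was made at 92 of the 3078 genes with a site (2.99%) and at 2 of the 20 members. With TSSs of protein-coding transcripts only, the stress-inducible genes with a site fell from 4 to 2 of 11, namely Hsp90aa1 and Dnajc3, and the ER stress-inducible genes among them to Dnajc3.

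Both sites were poor in CpG. The Hspa5 site had a GC content of 41.7% and an observed to expected CpG ratio of 0.415, and the Hsp90b1 site 41.0% and 0.365. The median over the member sites was 69.1% and 0.84, and over all promoter sites of protein-coding genes 66.5% and 0.878. Of the 23 member sites 4 had a GC content under 50% (17.4%), beside 397 of 3168 promoter sites (12.5%). The other 2 were the narrower site of Dnajc1, in an intron, with 43.6% and a CpG ratio of 0.384, and the internal site of Dnajb4, with 48.6% and 0.571. Both gene-body sites are printed here 5′ to 3′ on the strand of the gene (GRCm38.p6) to show how few CpG they hold, with CpG in capitals, 4 in Hspa5 and 3 in Hsp90b1. For comparison, the upstream site of Hsp90ab1 holds 17 in 254 bp, and the central 300 bp of the Cct8 site (chr16:87495932-87496231) hold 16.
Hspa5 site: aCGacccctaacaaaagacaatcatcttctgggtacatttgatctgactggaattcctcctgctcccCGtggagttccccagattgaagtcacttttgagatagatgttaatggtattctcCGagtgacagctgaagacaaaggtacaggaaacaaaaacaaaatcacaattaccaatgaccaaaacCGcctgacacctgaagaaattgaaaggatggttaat
Hsp90b1 site: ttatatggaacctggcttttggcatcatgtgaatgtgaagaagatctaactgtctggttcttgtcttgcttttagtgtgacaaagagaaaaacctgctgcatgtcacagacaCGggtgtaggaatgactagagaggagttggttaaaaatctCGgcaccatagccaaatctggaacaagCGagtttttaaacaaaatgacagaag
Hsp90ab1 upstream site: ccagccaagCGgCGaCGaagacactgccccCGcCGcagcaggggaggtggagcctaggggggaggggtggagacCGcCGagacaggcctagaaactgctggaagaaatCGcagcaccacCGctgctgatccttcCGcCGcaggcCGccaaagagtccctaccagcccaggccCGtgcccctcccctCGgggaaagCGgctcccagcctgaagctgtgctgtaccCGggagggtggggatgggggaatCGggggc
Cct8 site: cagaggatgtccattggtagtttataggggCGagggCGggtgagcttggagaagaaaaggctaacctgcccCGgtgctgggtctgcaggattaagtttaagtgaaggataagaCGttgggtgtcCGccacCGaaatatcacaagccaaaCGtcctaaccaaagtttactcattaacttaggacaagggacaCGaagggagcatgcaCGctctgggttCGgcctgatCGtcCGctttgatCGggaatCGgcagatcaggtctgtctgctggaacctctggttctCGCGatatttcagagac

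**Figure D3:**
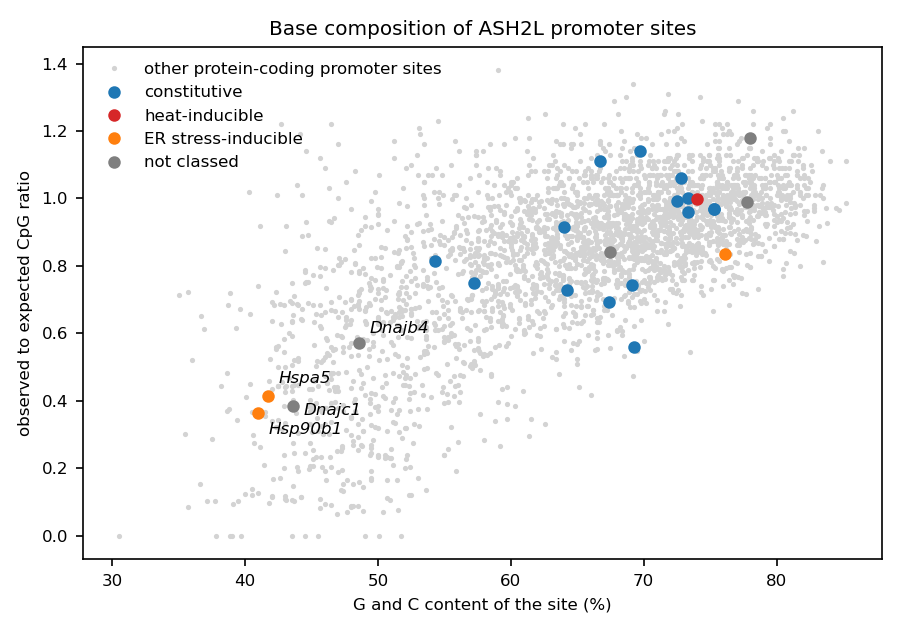
GC content (horizontal axis, percent) and observed to expected CpG ratio (vertical axis) of ASH2L sites at promoters of protein-coding genes, in grey, with the member sites coloured by expression class. The 4 named sites lie under 50% GC, the sites of Hspa5 and Hsp90b1 at 41.7% and 41.0%.

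The ER stress element was searched as CCAAT, then 9 bases of any kind, then CCACG, on both strands in promoters of 300 bp, from 250 bp before to 50 bp after the gene start, taken from RefSeq (GRCm38.p6), whose table held 65 of the 79 members. A gene was counted when any of its promoters in that table matched. The element contains the CCAAT box, which alone was found in 42.1% of protein-coding genes and in 28 of 65 members (43.1%). The ER stress element was present in promoters of 28 of 16522 protein-coding genes (0.169%) and of 3 members, Hspa5, Hsp90b1 and Dnajc3. These were the ER stress-inducible genes with a site, of which Dnajc3 alone kept it with TSSs of protein-coding transcripts. Of all 2396 genes with a site in the table, 7 held the element (0.292%). The other 2 of that class, Dnajb9 and Dnajb11, had neither the element as spelled nor a site. Dnajc3 (ENSMUSG00000022136.8) encodes an ER-luminal J-protein that works with BiP, and its site of 259 bp (chr14:118938001-118938259) was centred 154 bp downstream of its TSS in a coding exon. None of the 3 promoters overlapped a site, and no promoter site of a protein-coding gene among the 3168 contained the element. The promoters are shown 5′ to 3′ with the element in capitals, at chr2:34771840-34772139 (plus strand), chr10:86705395-86705694 (minus strand) and chr14:118937682-118937981 (plus strand). Counted from the gene start, the element begins at -65 in Hspa5 and at -105 in Dnajc3, and Hsp90b1 holds 2.
Hspa5 promoter: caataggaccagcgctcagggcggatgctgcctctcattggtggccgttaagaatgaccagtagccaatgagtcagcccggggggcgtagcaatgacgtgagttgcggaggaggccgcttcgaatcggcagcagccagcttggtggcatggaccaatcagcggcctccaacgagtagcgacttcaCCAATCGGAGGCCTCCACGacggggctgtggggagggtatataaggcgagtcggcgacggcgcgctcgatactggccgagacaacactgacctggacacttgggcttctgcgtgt
Hsp90b1 promoter: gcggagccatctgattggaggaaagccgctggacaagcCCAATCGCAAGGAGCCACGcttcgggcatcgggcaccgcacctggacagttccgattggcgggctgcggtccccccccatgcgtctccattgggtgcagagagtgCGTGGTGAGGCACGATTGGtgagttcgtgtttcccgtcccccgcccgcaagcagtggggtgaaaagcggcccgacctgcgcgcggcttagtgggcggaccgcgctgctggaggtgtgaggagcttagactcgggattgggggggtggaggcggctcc
Dnajc3 promoter: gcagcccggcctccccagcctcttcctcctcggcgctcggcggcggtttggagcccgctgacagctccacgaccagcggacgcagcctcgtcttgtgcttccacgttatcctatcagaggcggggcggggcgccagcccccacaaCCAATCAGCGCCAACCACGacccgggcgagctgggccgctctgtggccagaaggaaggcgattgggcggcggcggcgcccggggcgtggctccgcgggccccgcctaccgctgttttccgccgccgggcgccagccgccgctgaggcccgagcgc

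Of the 6 genes classed as heat-inducible, those other than Hsp90aa1 had no promoter site. The 1 of 6 (16.7%) is close to the 16.4% of all genes weighted to the same number of TSSs and island status. With only the 5′ end of each gene it was 0 of 6. Of 13 genes classed as constitutive that also rise with heat, 7 had a site (53.8%), beside 14.0% of all genes and 19.0% of those with an island. Hspd1 and Hspe1 are among the 7 and share 1 site. Hspa1a and Hspa1b, the inducible cytosolic HSP70 genes, lie next to each other on chromosome 17, and the nearest sites were 10.0 and 6.92 kb from their TSSs. Those sites belonged to the promoters of Lsm2 and of the non-coding gene 1110038B12Rik. Dnajb1, the J-protein partner of inducible HSP70, had its nearest site at a distance of 41.4 kb, Hspb1, a small heat shock protein that holds unfolded clients, at 166 kb, and Hsph1, an HSP110 that exchanges the nucleotide of HSP70, at 229 kb. The Hspa1a and Hspa1b promoters were identical at 296 of 300 positions. Of the 75-base words (the stated read length) in the 1 kb on either side of the Hspa1b start, 45.5% also occurred around the Hspa1a start. Upstream of the start the share was 13.7% and downstream 80.9%. A read that matches such a word exactly fits both genes, no mapping was run, and the part of this in the missing sites was not tested.

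The heat shock element was searched on both strands as 3 alternating units, either GAA, TTC, GAA or TTC, GAA, TTC, each pair parted by 2 bases of any kind. It was found in promoters of 95 of 16522 protein-coding genes (0.575%) and of 4 of 65 members, Hspd1, Hspe1, Dnajb6 and Hsph1, of which the first 2 had a site. The shorter core GAANNTTC, which the longer element contains, was found in 8.44% of protein-coding genes and in 15 of 65 members (23.1%), 3 of 14 with a site and 12 of 51 without. It was present in 4 of the 5 heat-inducible genes in the table, the exception being Dnajb1. The TATA box, searched as TATAAA, was found in 4 of 65 members (6.15%) beside 14.3% of protein-coding genes. A match to these letters is a description of the sequence and not evidence of factor binding. Of the 23 member sites, only the one shared by Hspd1 and Hspe1 contained the longer element, as did 15 of the 3168 promoter sites (0.473%). The promoters shown are those of Hspd1 (chr1:55087883-55088182, minus strand), of which 279 of 300 bp lay inside the site and where 2 overlapping matches are in capitals, of Hsph1 (chr5:149636266-149636565, minus strand) with the element in capitals, 15 bp after the start, and of Hspa1b (chr17:34959189-34959488, minus strand) with the core in capitals, beginning at -104. Hspd1 and Hsph1 each had 2 RefSeq promoters, and a promoter with the most matches to the element is shown. Neither the Hsph1 promoter shown nor the Hspa1b promoter overlapped a site.
Hspd1 promoter: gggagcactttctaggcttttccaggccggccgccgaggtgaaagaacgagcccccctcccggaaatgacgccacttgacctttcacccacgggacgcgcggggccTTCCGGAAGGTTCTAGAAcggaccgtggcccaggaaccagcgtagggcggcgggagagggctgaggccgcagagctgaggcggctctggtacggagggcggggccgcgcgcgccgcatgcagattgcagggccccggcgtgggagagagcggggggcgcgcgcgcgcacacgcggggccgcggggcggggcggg
Hsph1 promoter: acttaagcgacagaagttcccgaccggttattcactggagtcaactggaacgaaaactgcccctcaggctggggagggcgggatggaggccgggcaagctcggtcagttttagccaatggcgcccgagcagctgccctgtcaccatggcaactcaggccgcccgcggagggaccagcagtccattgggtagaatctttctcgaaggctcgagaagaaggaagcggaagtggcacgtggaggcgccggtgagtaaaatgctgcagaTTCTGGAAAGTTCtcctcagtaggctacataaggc
Hspa1b promoter: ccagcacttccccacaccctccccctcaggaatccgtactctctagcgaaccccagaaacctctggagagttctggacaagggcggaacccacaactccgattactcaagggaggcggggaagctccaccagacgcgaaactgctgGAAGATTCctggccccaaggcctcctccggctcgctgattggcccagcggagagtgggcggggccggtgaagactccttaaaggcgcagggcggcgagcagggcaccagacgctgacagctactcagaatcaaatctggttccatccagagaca

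Hspd1 (ENSMUSG00000025980.14) and Hspe1 (ENSMUSG00000073676.4), the barrel and the lid of the mitochondrial chaperonin, are transcribed divergently from one promoter. Their common site of 473 bp (chr1:55087689-55088161) was centred 99 bp downstream of the Hspd1 TSS, in its UTR, and 207 bp upstream of the Hspe1 TSS. It was wider than 87.0% of all sites. Further mitochondrial members also had sites. Hspa9 (ENSMUSG00000024359.10), the HSP70 of the matrix known as mortalin, had one of 480 bp on chromosome 18 (34953954 to 34954433), 164 bp downstream of the TSS. Dnajc19 (ENSMUSG00000027679.13), a J-protein of the inner membrane import motor, had one of 231 bp (chr3:34081106-34081336) at 41 bp, and Dnajc11 (ENSMUSG00000039768.16), which associates with the cristae-organising MICOS complex, one of 419 bp (chr4:151933558-151933976) at 23 bp. Of the 8 mitochondrial members 5 had a site (62.5%, Wilson interval 30.6 to 86.3%), beside 14.0% of all protein-coding genes and 19.0% of those with an island, and Dnaja3, Dnajc15 and Dnajc30 had none. Of the 10 ER members 5 had one (50.0%, 23.7 to 76.3%), beside the same 14.0% and 19.0%. With TSSs of protein-coding transcripts only it was 3 (30.0%), without Hspa5 and Hsp90b1.

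The cytosolic chaperonin TRiC is a double ring of 8 different subunits that folds actin and tubulin. Of the 7 subunit genes that GENCODE release 21 lists as protein-coding, Cct5 and Cct8 had one (28.6%). The Wilson interval of 8.22 to 64.1% includes both the 14.0% of all genes and the 19.0% of those with an island. Cct5 (ENSMUSG00000022234.15) had 2 narrow sites, of 201 bp (chr15:31601153-31601353) at 286 bp downstream of the nearest TSS and of 258 bp (chr15:31601495-31601752) at 84 bp upstream of that TSS, and shares this promoter with Fam173b. Both were centred inside the gene, 551 and 181 bp downstream of its annotated 5′ end, the wider in a coding exon. The site of Cct8 (ENSMUSG00000025613.13), of 359 bp (chr16:87495903-87496261), lay 209 bp upstream of its TSS, toward the divergent transcript B130034C11Rik. Tcp1, Cct2, Cct3, Cct4 and Cct7 had none. Their nearest sites were 20.6 kb, 84.3 kb, 357 kb, 8.17 kb and 558 kb away, and all 5 had a CpG island. Cct6a is listed in that release as a processed transcript and was not counted. It had a site of 305 bp (chr5:129786996-129787300), centred 150 bp downstream of a TSS in GENCODE and 208 bp upstream of its RefSeq TSS. The testis chaperonin genes Cct6b and Cct8l1 had no site.

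**Figure D4:**
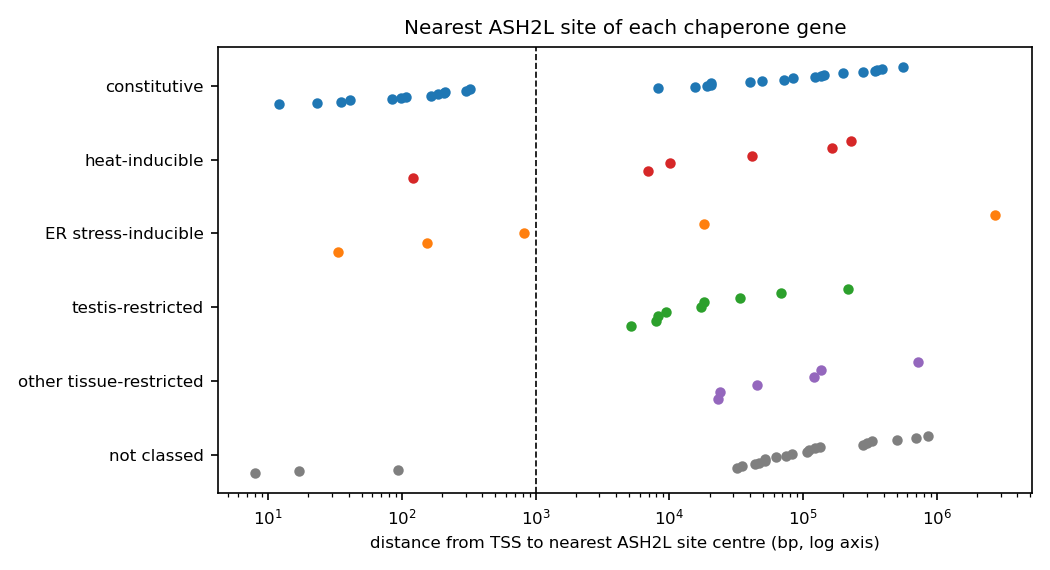
Distance from any annotated TSS of each chaperone gene to the nearest ASH2L site centre (horizontal axis, bp, log scale), 1 point per gene, by expression class. The dashed line marks 1 kb. Points fall at up to 819 bp or at 5201 bp and beyond, and all 9 testis-restricted genes lie to the right of the line.

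Of the 14 HSP70 and HSP110 genes 4 had a site (28.6%), namely Hspa5, Hspa9 and the following pair. The Wilson interval of 11.7 to 54.6% includes the 14.0% of all genes and the 19.0% of genes with an island. Hspa8 (ENSMUSG00000015656.17), the abundant constitutive HSC70 that also uncoats clathrin vesicles, had a site of 475 bp (chr9:40801259-40801733) centred 35 bp downstream of a TSS and 512 bp downstream of the annotated 5′ end. Hspa4 (ENSMUSG00000020361.13), an HSP110, had one of 349 bp (chr11:53300051-53300399) at 186 bp. Of the cytosolic constitutive genes of this family, Hspa8 and Hspa4 had a site and Hspa14, which acts at the ribosome, had none. The inducible Hspa1a, Hspa1b and Hsph1 and the germ cell forms Hspa1l and Hspa2 also had none, nor did Hspa4l, Hspa12a, Hspa12b and Hspa13. None of the 8 genes with an Hspb symbol (Hspb1, Hspb2, Hspb3, Hspb6, Hspb7, Hspb8, Hspb9 and Hspb11) had one, which allows a share of up to 37.5%, although all 8 had a CpG island. The symbol alone placed them among the small heat shock proteins, so this is not a count by protein function.

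Of the 43 J-protein genes 9 had a site (20.9%, Wilson interval 11.4 to 35.2%), beside 11 of the 36 other members (30.6%, 18.0 to 46.9%). Of the J-protein genes with an island 21.4% had a site, close to the 19.0% of all genes with an island, and the intervals of J-protein genes and other members overlap. Sites were found at 2 of 4 Dnaja, 2 of 13 Dnajb and 5 of 26 Dnajc genes. Dnaja2 (ENSMUSG00000031701.6), a cytosolic partner of HSC70, had the widest site of a constitutive member, 637 bp (chr8:85554705-85555341), ending just inside its TSS and centred 321 bp downstream. Dnaja4 (ENSMUSG00000032285.15), a relative of it, had a site of 296 bp (chr9:54699420-54699715) in its UTR, centred 8 bp from a TSS, with the highest GC content of the member sites, 78.0%. That site was centred 694 bp downstream of the annotated 5′ end of Dnaja4. The heat-responsive gene Dnaja1 had none.

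Dnajb14 (ENSMUSG00000074212.7), an ER membrane J-protein, had a site of 547 bp (chr3:137867785-137868331) 108 bp upstream of the nearest TSS, whereas its paralogue Dnajb12 had none. The Dnajb14 site was centred in an intron, 383 bp downstream of the annotated 5′ end of the gene. Dnajb4 (ENSMUSG00000028035.13), a cytosolic relative of Dnajb1, had 2 promoter sites. The upstream one, of 302 bp (chr3:152210719-152211020), is shared with the divergent gene Fubp1, and the other, of 214 bp (chr3:152193645-152193858), lay 16.6 kb downstream of the annotated 5′ end and 94 bp from a TSS. Dnajc1 (ENSMUSG00000026740.12), an ER membrane J-protein, had the widest member site, 806 bp (chr2:18392223-18393028) at 17 bp downstream, wider than 96.3% of all sites, and a second of 275 bp (chr2:18391738-18392012) at 545 bp. Dnajc2 (ENSMUSG00000029014.14), which acts at the ribosome on nascent chains, had a site of 207 bp (chr5:21785136-21785342) centred 12 bp downstream of its TSS. The same site was within 1 kb of a TSS of the divergent proteasome gene Psmc2.

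The constitutive members without a site were the 5 chaperonin genes, Hspa14, Dnaja1, Dnaja3, Dnajb6, Dnajb12, Dnajc7, Dnajc8, Dnajc9, Dnajc13, Dnajc14, Dnajc17, Dnajc21 and Dnajc24. For all 59 members without a promoter site the median distance to the nearest one was 71.7 kb, beside 124 kb for all protein-coding genes without one. The nearest sites of the testis-restricted genes Hspa1l, Hspa2, Hspb9, Cct6b, Cct8l1, Dnajb3, Dnajb7, Dnajb8 and Dnajb13 lay between 5.2 and 218 kb, and that of the ER gene Dnajb9, at 2720 kb, was the most distant of the members. For 30 members another gene started on the opposite strand no more than 1 kb upstream. Of these 7 had a site (23.3%, Wilson interval 11.8 to 40.9%), and of the 49 others 13 (26.5%, 16.2 to 40.3%). Over all protein-coding genes the shares were 28.2% with such a neighbour and 10.9% without.

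Partners of the chaperones were counted from a list of 50 genes, of which 16 had a promoter site (32.0%, Wilson interval 20.8 to 45.8%, beside 14.0% of all protein-coding genes). An island was present at 49 of the 50, of which 16 had a site (32.7%), beside 19.0% of all genes with an island. These shares of all genes were not weighted to the number of TSSs. Without sites of 200 bp, the width of those at Bag4 and Grpel2, 14 of the 50 (28.0%) had one. The heat shock factor genes Hsf1 and Hsf2 had one and Hsf4 had none. The Hsf1 site, of 336 bp (chr15:76477661-76477996), was centred 142 bp downstream of a TSS and the Hsf2 site, of 422 bp (chr10:57486558-57486979), 343 bp downstream. Of 18 co-chaperones of HSP70, 6 had a site, namely the BAG family genes Bag1, Bag4, Bag5 and Bag6, the mitochondrial nucleotide exchange factor Grpel2, and St13. Of 15 co-chaperones and relatives of HSP90, 5 had one, namely Cdc37, which delivers kinases, Ptges3 (p23), Chordc1, Ttc4 and the mitochondrial HSP90 Trap1. Of 9 genes of prefoldin and the phosducin-like proteins, which assist TRiC, Pfdn5 alone had a site (586 bp, 49 bp downstream). The ER lectin chaperones Calr and Canx had one each, and Cryab, Cryaa and Clpb had none.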

How the data were processed

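ASH2L was profiled by ChIP-seq in 8 libraries of iMEF cells (4 groups of 2 replicates). Reads were trimmed (Trim Galore) and aligned by BWA to mm10 (GRCm38.p6) by the authors, unusable reads were removed with SAMtools, replicates were joined by Picard, and MACS called narrow peaks. They deposited the union of sites as positions only, an other kind of value than counts or signal, with no score and no reads per library, so no test between samples could be made from it. Other files of the study were not used here. Starts were read as counted from 0 and are printed counted from 1.

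Sites were represented by their centre and compared with TSSs of GENCODE mouse release 21, which is older than the release used by the authors. A CpG island had 200 bp or more, GC over 50% and CpG at over 0.6 of the number its bases predict. Shares have Wilson 95% intervals, and a count of 0 allows 3 counts of the total. Members, classes and partner lists were chosen with earlier results of these data known, and classes came from general knowledge of the genes, not from these cells. Every member with a site is named with its position. Chaperonin, heat-inducible, ER stress-inducible and testis-restricted members without one, partners with one, genes sharing a site and the members nearest the 1 kb limit are named too. Alternatives changed the window, the TSSs, the sites used, the island and the classes. RefSeq mRNA starts were an alternative chosen after seeing the data.

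Scripts ran in Python 3.11.15 with pandas 2.3.3, matplotlib 3.10.9, SciPy 1.17.1 and NumPy 2.4.6. On simulated data, all 200 sites planted among 21938 genes were assigned to their gene.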

Additional observations from a re-analysis of the deposited data

How the results depend on the processing

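The number of members with a site ranged from 17 to 20 over 8 alternatives, and constitutive genes (13 of 31), testis-restricted genes (0 of 9) and chaperonin genes (2 of 7) did not change with the window, the TSSs or the sites used. Stress-inducible genes depended on the TSSs. The count of 4 of 11 became 1 with only the 5′ end of each gene, where Hsp90aa1, Hsp90b1 and Hspa5 were lost, and 2 with TSSs of protein-coding transcripts or with those of RefSeq mRNAs, where Hsp90b1 and Hspa5 were lost. The same TSSs moved the ER members from 5 to 3 of 10 and the ER stress-inducible genes from 3 to 1 of 5 in each of these settings, and with only the 5′ ends the HSP90 genes went from 3 to 1 of 3 and the heat-inducible genes from 1 to 0 of 6. The alternatives for the ER, ER stress-inducible, heat-inducible and mitochondrial genes and for families other than the chaperonin were chosen after seeing the data. Those for the constitutive, stress-inducible, testis-restricted and chaperonin genes were planned, apart from the RefSeq mRNA starts. When constitutive genes that also rise with heat were counted as stress-inducible, the constitutive count became 6 of 18 and the stress-inducible count 11 of 24. The remaining 134 of 147 alternatives stayed within 1.5 times of the main count. With 1 kb on either side of each TSS in place of 300 bp, 4 of the 5 motif counts moved, the heat shock element from 4 to 14 of 65 members, with 8.01% of all genes then matching. In that window the core was found in 61.5% of members and 62.7% of all genes, the TATA box in 80.0% and 79.8%, and the CCAAT box in 95.4% and 97.4%. Most genes hold these short motifs in so long a window, which therefore says little about the 300 bp promoters. No paired analysis was possible because the list has no value per sample, and for the same reason no replicate could be left out and no stricter peak threshold applied. The list gives neither reads nor scores, so a gene without a listed site may still be bound below its threshold.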
